A study of Mus musculus with 9 samples.

Results

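The brain of PG9VN mice was compared with that of wild-type (WT) mice across all expressed genes. The comparison uses 6 of the 9 libraries of the series, 3 PG9VN and 3 WT, chosen by their labels, and covers 17398 tested genes of 33641. Every library came from a separate untreated mouse aged 7.5 months, and held poly(A) RNA of a dissected brain piece labelled as containing thalamus, hypothalamus and midbrain. The remaining 3 libraries, from PG9V mice of the same age and tissue, enter the filter on low counts, the scaling and the estimate of the spread, but are not compared here. What the line names stand for is general knowledge, not taken from the labels: both lines lack progranulin (Grn) and carry further engineered alleles. PG9VN mice therefore differ from WT in more than progranulin, and the comparison does not separate these contributions. The alleles are in the germline, so every cell type of the piece carries them.

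Progranulin is a secreted and lysosomal protein that supports the work of lysosomal enzymes. Its loss in people causes frontotemporal dementia or, when complete, a neuronal ceroid lipofuscinosis. In lysosomal disorders of the brain undegraded material accumulates, neurons are lost and microglia and astrocytes react.

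Levels are depth-normalised counts (CPM, on TMM library sizes), as mean ± SD over 3 libraries per group, and single libraries are listed in the order of replicates 1, 2 and 3. Differences are log2 fold changes of PG9VN against WT ± SE tested by the quasi-likelihood method of edgeR. A gene is said to have risen or fallen when its Benjamini-Hochberg adjusted p over all genes was under 0.05. In a dissected piece, fewer cells of a type and less RNA per cell cannot be told apart.

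Progranulin checked the labels. Grn measured 55.5, 46.5 and 48.2 CPM in the WT libraries and 4.71, 3.58 and 4.21 CPM in the PG9VN libraries. All PG9VN libraries lay far below all WT libraries (log2 fold change of -3.59 ± 0.21, adjusted p = 2.65e-05).

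The libraries held 27150311 to 35349014 estimated counts. PG9VN replicate 2 stood apart: on the second principal component (20.2% of the variance) it lay at 58.0, against -33.9 and -38.2 for the other PG9VN libraries. Of the defining markers of the labelled tissue it nearly lacked hypothalamic Hcrt, the orexin precursor (0.0738 CPM against 13.6 to 15.9 in WT), and midbrain Slc6a3, the dopamine transporter (0.111 against 34.5 to 47.3). Its level of Neurod6, a cortical and hippocampal gene, was 127 CPM, against 5.38 to 39.0 in WT. PG9VN replicate 3 was also low in Slc6a3, at 1.53 CPM. WT replicate 1 nearly lacked the Y-linked Ddx3y (0.450 CPM, against 43.3 to 68.8 in the other 5 libraries), and the labels do not state the sex of any mouse. In CPM on TMM library sizes, genes of the mitochondrial genome came to 6.47% to 6.61% in WT and 7.35% to 8.59% in PG9VN. These scaled sums are not exact shares of the counts, and they leave out near-identical nuclear copies. The part of these features in the results was not tested, and results that depend on 1 library are given with and without it.

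Of the 17398 genes tested, 3258 (18.7%) differed, 2002 of them higher (11.5%) and 1256 lower (7.22%) in PG9VN. Every PG9VN library lay above every WT library for 3533 genes (20.3%) and below for 2995 (17.2%), 37.5% together, and 1996 of the genes that rose and 1253 of those that fell were among these. The rises were larger than the falls. The median log2 fold change was 0.89 among the genes that rose and -0.50 among those that fell. A change of at least 2-fold was reached by 901 rising genes (5.18% of all tested) and 173 falling genes (0.994%), and of at least 16-fold by 73 and 6. Leaving out PG9VN replicate 2, 1863 of the 2002 rises (93.1%) and 1150 of the 1256 falls (91.6%) were called again, and 872 of the 901 and 141 of the 173 changes of at least 2-fold. Without that library 2365 genes were higher (13.4%) and 2014 lower (11.4%) of 17639. The counts also moved by over 1.5 times without other single libraries: the genes higher to 1299 without WT replicate 1 and 1276 without WT replicate 3, and the genes lower to 533, 788 and 563 without WT replicates 1, 2 and 3 and to 663 without PG9VN replicate 3.

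Rising and falling genes differed in CPM, a level that is not per length. Among genes with a mean of 3 to 10 CPM, 18.7% rose and 3.77% fell, whereas among those with 100 to 300 CPM 7.14% rose and 16.1% fell. The sums that follow are of CPM on TMM library sizes and are not exact shares of a library. The rising genes together took 64323, 62710 and 63209 CPM in WT and 110616, 148451 and 122534 CPM in PG9VN. The falling genes together took 133714, 130438 and 133987 CPM in WT and 99048, 91085 and 90236 CPM in PG9VN. PG9VN replicate 2 was the highest in the first sum. That the groups do not overlap in these sums follows from how the genes were chosen. The 10 genes with the largest gains held 34.7% of the summed gain, and the 10 with the largest losses 10.1% of the summed loss.

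**Figure D1:**
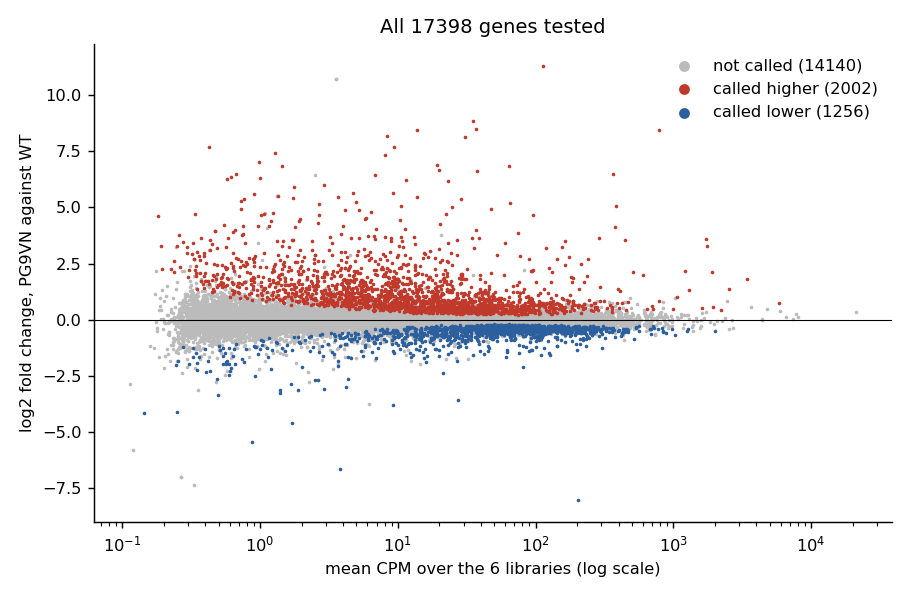
Log2 fold change of PG9VN against WT (vertical axis) against mean CPM over the 6 libraries (horizontal axis, log scale), 1 point per tested gene. The 2002 genes called higher reach further from 0 than the 1256 called lower, and many of the latter lie at high CPM.

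Of the 12 largest rises 3 were of copies of ribosomal protein genes (Rps2-ps13, Rps3a2 and Rps3a3), whose values are uncertain and are given with other such copies. Lcn2, the iron-siderophore binding protein lipocalin 2, measured 0.0693, 0.508 and 0.0558 CPM in the WT libraries and 67.6, 113 and 40.2 CPM in the PG9VN libraries. Every PG9VN library was far above every WT library, and replicate 2 was the highest (log2 fold change of 8.47 ± 0.64, adjusted p = 8.16e-05). Atp6v0d2, a subunit of the vacuolar proton pump found in osteoclasts and phagocytes, measured 0, 0.135 and 0.0279 CPM in the WT libraries and 11.5, 20.1 and 18.6 CPM in the PG9VN libraries. The groups did not overlap, and WT was near the floor of 3 counts (log2 fold change of 8.19 ± 0.60, adjusted p = 5.89e-05). Lgals3, the beta-galactoside-binding lectin galectin-3, measured 1.39, 1.05 and 0.921 CPM in the WT libraries and 80.9, 188 and 115 CPM in the PG9VN libraries. PG9VN replicate 2 was the highest of 3 libraries that all exceeded WT (log2 fold change of 6.84 ± 0.54, adjusted p = 0.000107). Other large rises were those of the leukocyte receptor Lilr4b (6.88 ± 0.39) and the phagocytic receptor Clec7a (6.67 ± 0.40).

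The genes with the largest gains in CPM were other ones, apart from Gpnmb. Apoe, the apolipoprotein of glia, rose from 1531 ± 50.05 CPM to 5339 ± 1131 CPM (log2 fold change of 1.80 ± 0.19, adjusted p = 0.000364). Ctsd, the lysosomal protease cathepsin D, measured 362, 299 and 312 CPM in the WT libraries and 2624, 3781 and 3185 CPM in the PG9VN libraries. The lowest PG9VN library was several times the highest WT library (log2 fold change of 3.30 ± 0.27, adjusted p = 7.60e-05). Cathepsin B (Ctsb) rose from 444 ± 33.1 CPM to 1975 ± 414 CPM, the chaperone clusterin (Clu) from 747 ± 84.6 CPM to 1843 ± 304 CPM, complement C4b from 68.9 ± 11.4 CPM to 818 ± 133 CPM and the translation elongation factor Eef1a1 from 1558 ± 37.4 CPM to 2313 ± 237 CPM. The ferritin heavy chain Fth1 went from 1426 ± 204 CPM to 3663 ± 1628 CPM (adjusted p = 0.0132). Its call was lost when WT replicate 2 or WT replicate 3 was left out. Among the smallest p-values were those of the asparaginase Aspg (log2 fold change of 3.43 ± 0.13, adjusted p = 4.58e-06), the complement receptor C3ar1 (log2 fold change of 3.37 ± 0.15, adjusted p = 7.27e-06) and the receptor Cd84 (log2 fold change of 2.64 ± 0.13, adjusted p = 9.20e-06).

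**Figure D2:**
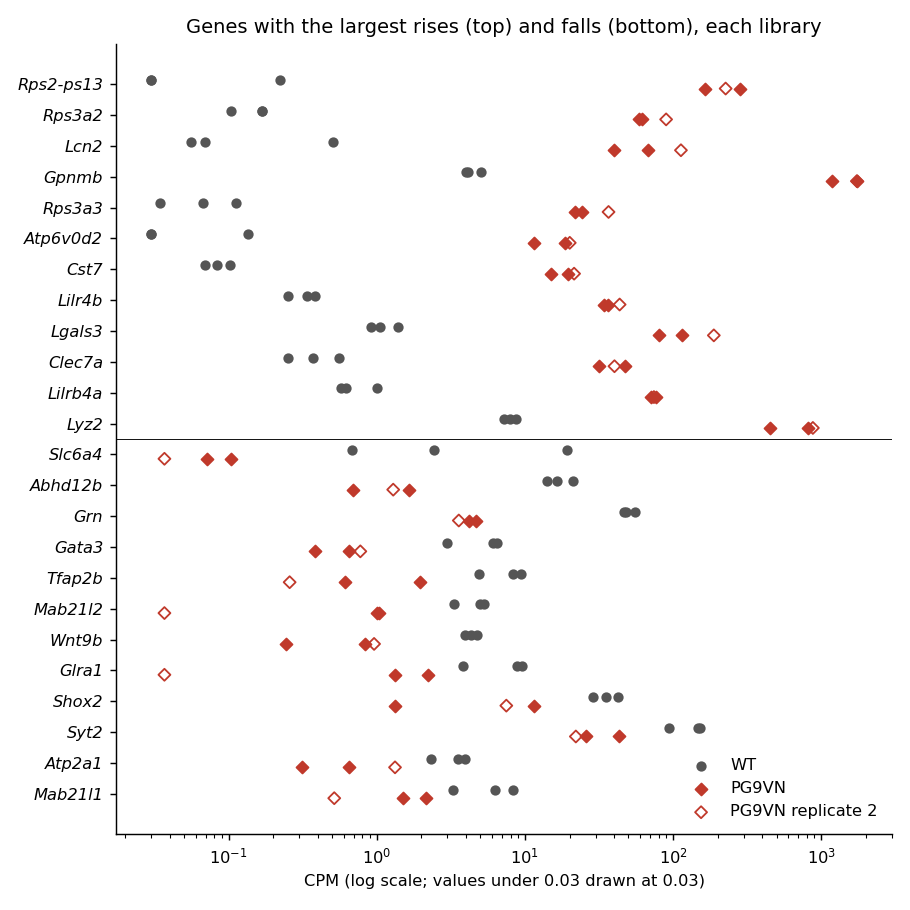
CPM (log scale) in each of the 6 libraries for the 12 named genes with the largest rises and the 12 with the largest falls, with PG9VN replicate 2 as open diamonds. The groups do not overlap for any of these genes, which is part of how they were chosen; the WT libraries of Slc6a4 spread the most.

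There were 11 genes with at most 3 counts in each WT library and at least 30 in each PG9VN library, and 0 genes with the reverse. Their ratios are given from summed counts with exact 95% intervals, which cover counting error only. Cdkn2a, which encodes the cell cycle inhibitors p16 and p19Arf, had 2, 2 and 1 counts in WT and 53, 79 and 88 in PG9VN, a ratio of 49.6 (20.9 to 154). Htr2b, a serotonin receptor, had 3, 2 and 3 counts against 130, 194 and 156, a ratio of 67.6 (34.0 to 157). The cystatin Cst7 had 2, 3 and 3 counts against 417, 582 and 559. Of these genes Glycam1 differed the most within PG9VN, with 48, 199 and 37 counts, replicate 2 being the highest. The others were Hcar2, Serpina3i, Clec4d, Ccl8, Hist1h2al, Ctse and Cd300lb. The last 3 lie outside the rule for named genes and complete the count.

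The calcium- and glycan-binding proteins of the S100, annexin and galectin families moved together. Of 22 tested, 17 were higher and 0 lower, against 11.5% and 7.22% of all genes, and their median was 1.33 on the log2 scale, against 0.02 over all genes. The counts of the other lists are to be read against the same shares. The count was 15 to 17 when any single library was left out. S100a6 rose from 5.16 ± 0.0784 CPM to 63.5 ± 25.2 CPM (log2 fold change of 3.62 ± 0.29, adjusted p = 9.72e-05), and the phospholipid-binding annexins Anxa3 (1.74 ± 0.15) and Anxa2 (1.23 ± 0.12) rose less.

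Of 21 integrin genes 8 were higher (38.1%) and 1 lower (4.76%), against 11.5% and 7.22% of all genes (0 lower without WT replicate 1 or 3). Itgax, the alpha chain CD11c, measured 0.416, 0.305 and 0.335 CPM in the WT libraries and 14.7, 17.9 and 21.3 CPM in the PG9VN libraries. The PG9VN libraries were close to each other and far above WT (log2 fold change of 5.66 ± 0.23, adjusted p = 4.58e-06), and the beta chains Itgb2 (2.97 ± 0.19) and Itgb3 (1.76 ± 0.15) rose too. Of 21 tetraspanins, which organise membrane domains, 8 were higher (38.1%) and 0 lower (2 lower without PG9V replicate 2 or PG9VN replicate 2, 1 without PG9V replicate 3), with Cd53 at 2.57 ± 0.18 and Cd9 going from 34.7 ± 4.03 CPM to 154 ± 39.4 CPM. Of 39 genes of actin filaments and their nucleation 13 were higher (33.3%) and 3 lower (7.69%). They included the leukocyte bundling protein Lcp1 (1.83 ± 0.12), the capping protein Capg (4.25 ± 0.33), the membrane linker moesin (Msn, 1.68 ± 0.11) and, from the same list though it forms intermediate filaments, vimentin (Vim, from 42.7 ± 6.18 CPM to 536 ± 167 CPM, 3.65 ± 0.26). Of that list 0 were lower without WT replicate 3, and 1 without WT replicate 1 or any 1 PG9V library.

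Of 37 matrix proteases and their inhibitors 12 were higher (32.4%) and 3 lower (8.11%). The macrophage elastase Mmp12 measured 1.42, 1.76 and 1.79 CPM in the WT libraries and 38.3, 53.3 and 37.6 CPM in the PG9VN libraries. All 3 PG9VN libraries exceeded WT many times over (log2 fold change of 4.69 ± 0.32, adjusted p = 5.04e-05). The urokinase Plau (3.68 ± 0.31), the protease Adam8 (1.83 ± 0.20) and the complement C1 inhibitor Serping1 (1.999 ± 0.15) rose as well. Lower calls of the list went to 1 without WT replicate 1 or WT replicate 3 and to 5 without PG9VN replicate 2. Of 29 genes of perineuronal nets and proteoglycans 5 were higher (17.2%) and 2 lower (6.90%; 4 lower without PG9VN replicate 2), not far from the shares of all genes. Osteopontin (Spp1) rose from 23.3 ± 1.65 CPM to 215 ± 59.8 CPM (log2 fold change of 3.21 ± 0.28, adjusted p = 0.000144) and the hyaluronan receptor Cd44 by 2.75 ± 0.27, whereas aggrecan (Acan), the core proteoglycan of perineuronal nets, fell from 10.6 ± 4.02 CPM to 3.26 ± 0.410 CPM (log2 fold change of -1.70 ± 0.26, adjusted p = 0.00227). Collagens and laminins, with 2 higher (6.90%) and 3 lower (10.3%) of 29, were also near the shares of all genes (4 higher without PG9VN replicate 2 and 1 without any other library but PG9V replicate 3; 1 lower without WT replicate 1). Laminin Lamb2 rose (0.75 ± 0.14) and the basement membrane collagen Col4a2 fell (-0.42 ± 0.09).

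Lists of cell death and NF-kappaB signalling genes held rises and 0 falls. Of 33 apoptosis and necroptosis genes 19 were higher and 0 lower, with a median of 0.52, and 13 to 19 were higher when single libraries were left out (1 lower without PG9VN replicate 1 or 2). The death receptor Tnfrsf1a measured 12.1, 12.4 and 11.7 CPM in the WT libraries and 35.5, 46.96 and 48.7 CPM in the PG9VN libraries. The groups were well apart (log2 fold change of 1.86 ± 0.14, adjusted p = 5.89e-05), and the initiator caspase Casp8 (1.78 ± 0.17) and the survival protein Bcl2a1b (4.77 ± 0.45) rose with it. Of 25 genes of the NF-kappaB pathway, the transcription factor family of inflammation, 13 were higher and 0 lower (9 to 13 without single libraries). The subunit Rela rose from 21.4 ± 0.466 CPM to 33.9 ± 3.84 CPM (0.67 ± 0.09), Nfkb2 by 0.89 ± 0.15, and the regulators Bcl3 (3.83 ± 0.29) and Tnfaip3 (0.98 ± 0.16) also rose. Of 30 p53 targets and DNA damage genes 10 were higher and 1 lower, with 5 higher without WT replicate 3 and 0 lower without any 1 WT or PG9V library. They included the BH3-only protein Bbc3 (1.21 ± 0.15), the pore-forming protein Bax (0.84 ± 0.15) and Trp53 itself (0.54 ± 0.10).

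Secreted factors and receptors were split. Of 38 growth factors and neurotrophins 10 were higher and 4 lower (2 lower without any one of the WT or PG9V libraries or PG9VN replicate 3, 8 without PG9VN replicate 2). The stress cytokine Gdf15 rose from 0.0868 ± 0.0426 CPM to 2.40 ± 0.401 CPM (log2 fold change of 4.75 ± 0.39, adjusted p = 8.05e-05). Csf1, the growth factor of microglia, rose from 30.7 ± 3.55 CPM to 71.3 ± 6.93 CPM (log2 fold change of 1.21 ± 0.11, adjusted p = 0.000167), with its receptor Csf1r at 0.64 ± 0.13. The cytokine oncostatin M (Osm) rose by 3.17 ± 0.41, from 0.0921 ± 0.0410 CPM to 0.887 ± 0.164 CPM. For Gdf15 and Osm, WT lay near the floor of 3 counts. The oncostatin M receptor Osmr rose from 6.53 ± 1.45 CPM to 47.5 ± 9.76 CPM (2.86 ± 0.20). Of the TGF-beta and BMP pathway 8 of 42 were higher and 2 lower, with 5 higher without WT replicate 1, WT replicate 3, PG9V replicate 2 or PG9VN replicate 3, and 0 lower without WT replicate 1 or 3 and 1 without WT replicate 2 or PG9VN replicate 3. The ligand Tgfb1 (1.68 ± 0.18), both receptors Tgfbr1 (0.70 ± 0.08) and Tgfbr2 (0.92 ± 0.10) and the target Id3 (1.34 ± 0.18) rose. The Wnt pathway gave 0 higher and 7 lower of 48, with 4 higher without PG9VN replicate 2 and 1 without WT replicate 2. The ligands Wnt9b (from 4.32 ± 0.415 CPM to 0.677 ± 0.381 CPM) and Wnt3 (-1.04 ± 0.20), the receptor Fzd1 (-0.64 ± 0.13) and the nuclear effector Lef1 (-1.16 ± 0.17), which is also a thalamic gene, fell.

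Of 39 genes of PI3K, Akt and mTOR signalling 12 were higher and 5 lower, with a median of 0.02. The higher members named here are signalling proteins of blood and immune cells: the exchange factor Vav1 (2.08 ± 0.16), the kinase Syk (1.61 ± 0.17), the phosphatase Inpp5d (1.34 ± 0.14) and the regulatory subunit Pik3r5 (1.79 ± 0.19). Lower calls were 3 without any 1 WT library and 9 without PG9VN replicate 2. Of 43 Rab and endosomal genes 6 were higher (13.95%) and 2 lower (4.65%), close to the 11.5% and 7.22% of all genes. Rab7b, a late endosomal GTPase, measured 1.66, 1.25 and 1.004 CPM in the WT libraries and 13.6, 17.96 and 17.7 CPM in the PG9VN libraries. PG9VN exceeded WT in every library (log2 fold change of 3.66 ± 0.31, adjusted p = 9.61e-05), and Rab32 rose by 2.30 ± 0.25. Lower calls of that list were 0 without any 1 WT library, PG9V replicate 1 or PG9VN replicate 3, 1 without PG9V replicate 2 or 3 or PG9VN replicate 1, and 7 without PG9VN replicate 2.

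Of 35 glutathione genes and targets of Nrf2, the regulator of the antioxidant response, 10 were higher (28.6%) and 3 lower (8.57%; 9 to 14 and 1 to 4 without single libraries; 1 lower without WT replicate 1 or 2, PG9V replicate 1 or 3, or PG9VN replicate 3). Heme oxygenase Hmox1 measured 4.50, 3.86 and 3.57 CPM in the WT libraries and 22.8, 30.5 and 25.8 CPM in the PG9VN libraries. The PG9VN libraries lay above WT without overlap (log2 fold change of 2.73 ± 0.21, adjusted p = 5.89e-05). The peroxiredoxin Prdx6 went from 156 ± 7.28 CPM to 429 ± 57.5 CPM (1.46 ± 0.14) and Nfe2l2, which encodes Nrf2, rose by 1.12 ± 0.11. The metallothioneins Mt1 (from 108 ± 5.39 CPM to 343 ± 94.8 CPM) and Mt2 (from 80.3 ± 8.28 CPM to 293 ± 84.2 CPM) rose, in a list of 19 with 6 higher and 1 lower (0 lower without any 1 WT library or PG9VN replicate 3). Of 26 eicosanoid genes 8 were higher and 1 lower (2 lower without PG9VN replicate 2), led by the prostaglandin D synthase Hpgds (1.79 ± 0.14) and the leukotriene cofactor Alox5ap (1.70 ± 0.20). Of 27 glycolysis and lactate genes 8 were higher and 1 lower, and 4, 5 and 4 were higher without WT replicates 1, 2 and 3. The lower count was 2 without PG9VN replicate 2 and 0 in the other 8 omissions. The hexokinases Hk2 (1.72 ± 0.18) and Hk3 (2.75 ± 0.28) and the lactate transporters Slc16a1 (0.88 ± 0.14) and Slc16a3 (1.59 ± 0.18) rose. Of the tricarboxylic acid cycle 3 were higher and 1 lower of 28, or 10.7% and 3.57%, neither above the shares of all genes (1 higher without WT replicate 1). The lower count was 10 without PG9VN replicate 2, 2 without PG9VN replicate 1 and 0 without WT replicate 1 or 3 or PG9VN replicate 3.

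**Figure D3:**
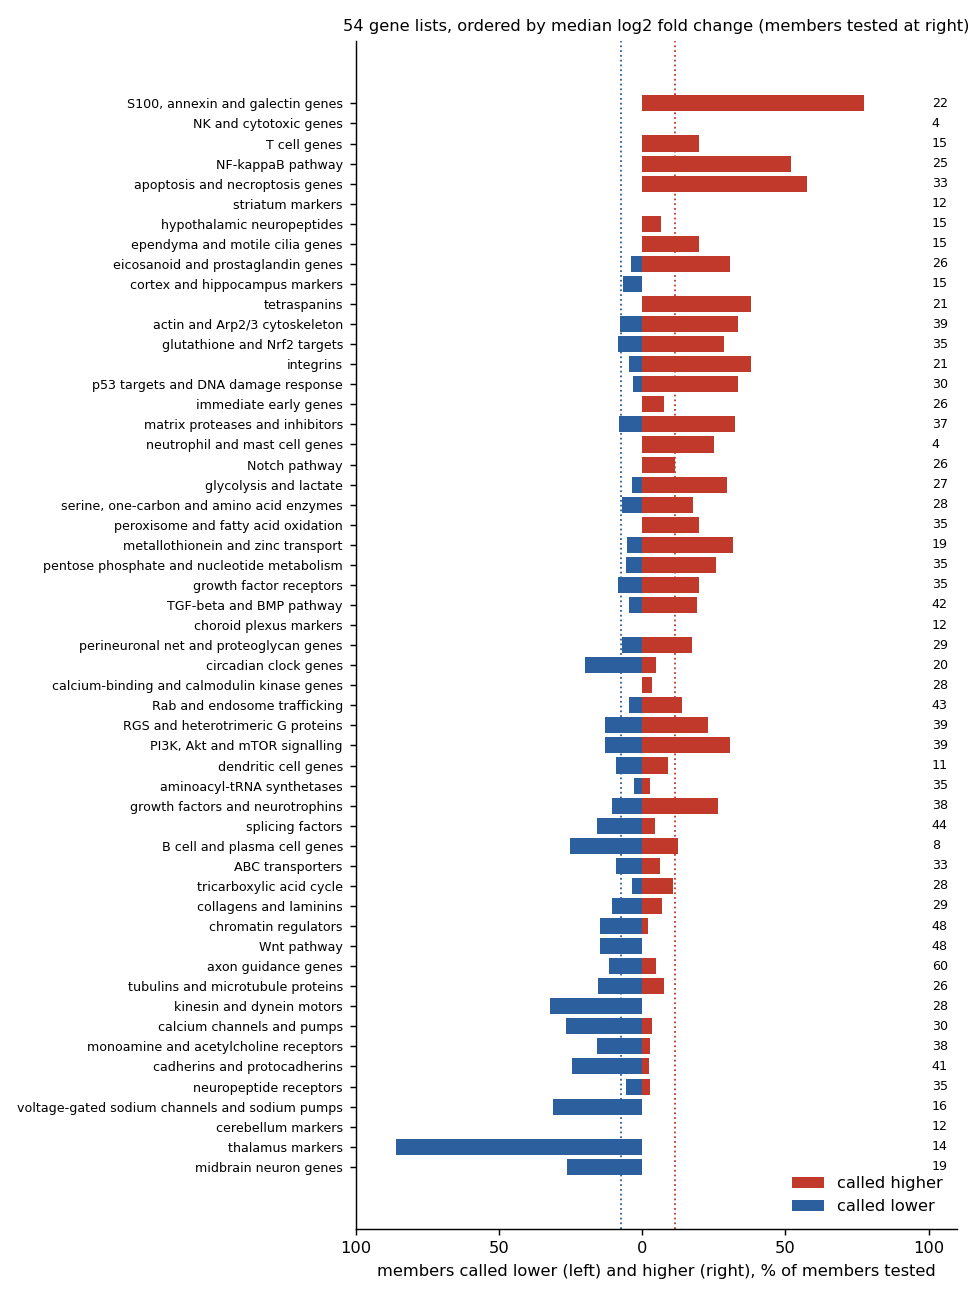
Members called higher (right, red) and lower (left, blue) as a percentage of the members tested, for 54 gene lists ordered by median log2 fold change, with dotted lines at 11.5% and 7.22%, the shares over all genes. S100, annexin and galectin genes lie at the top and thalamus and midbrain genes at the bottom.

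Markers of other leukocytes were low. Of 15 T cell genes 3 were higher and 0 lower (0 higher without WT replicate 1, 1 without WT replicate 2, 5 without PG9VN replicate 2), and Cd3e lay at 0.335 to 0.677 CPM in WT and 0.369 to 1.08 CPM in PG9VN. Of 8 B cell genes 1 was higher and 2 lower (0 lower without WT replicate 1 or 3 or PG9VN replicate 3, and 1 without WT replicate 2, PG9V replicate 1 or 3 or PG9VN replicate 2). Of 4 neutrophil and mast cell genes tested the only one called was Csf3r (from 7.32 ± 1.21 CPM to 25.6 ± 0.677 CPM), and Ly6g reached 0.0360 CPM at most. Of 15 ependymal genes 3 were higher (1 without PG9VN replicate 3), among them Foxj1, the regulator of motile cilia (from 18.03 ± 4.11 CPM to 32.7 ± 1.28 CPM), whose call was lost without PG9VN replicate 3. Choroid plexus markers gave 0 calls of 12 (1 higher without WT replicate 1). Their transthyretin gene Ttr ranged from 70.7 to 1567 CPM among the WT libraries, WT replicate 1 being the highest. These values accompany the rises above, and their part in them was not tested.

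Promoters of the rising genes were read for binding motifs of factors of these pathways. RefSeq promoters (GRCm38.p6, 250 bases before to 50 after the annotated start) were matched for 12612 of the tested genes (72.5%), and motifs were searched on both strands. The PU.1 motif GAGGAAGT, bound by the master regulator of myeloid cells, was in 2.79% of all these promoters and in 9.23% of those of genes that rose at least 2-fold (661 promoters). The AP-1 motif TGANTCA was in 5.48% and 12.7%, the interferon response element (GAAA, 2 bases of any kind, GAAA) in 3.20% and 8.77%, and the NF-kappaB motif (GGGAA, 1 base of any kind, TTCC) in 0.373% and 1.66%. For the lysosomal CLEAR motif TCACGTGA the shares were 1.60% and 0.908%. Of the 661 promoters only 11 held the NF-kappaB motif and 6 the CLEAR motif. The cAMP response element TGACGTCA was in 2.90% of all, in 1.21% of those that rose at least 2-fold and in 3.96% of the 935 promoters of falling genes. The TATA box TATAAA was in 8.50% of all and 14.2% of those that rose at least 2-fold, the GC-box GGGCGG in 58.8% and 43.9%, CCAAT in 38.2% and 32.5%, the C/EBP motif TTGCGCAA in 0.246% and 0%, and the E-box CACGTG, which lies within the CLEAR motif, in 9.33% and 7.26%. These shares are descriptions of the letters in these windows. The 4 promoters below belong to the eligible genes with the largest rise among those holding each of the first 4 motifs. Eligible genes were called higher at least 2-fold, with libraries not overlapping and a mean of at least 2 CPM. Predicted genes and the genes of 1 chromosome were left out of this choice, and each gene is shown once. Capitals mark the match of the motif each gene was chosen for, and the sequences run 5′ to 3′ on the gene's strand. Matches of other motifs stay in lower case, such as the interferon response element and the AP-1 motif of Cxcl10.
Mcoln3: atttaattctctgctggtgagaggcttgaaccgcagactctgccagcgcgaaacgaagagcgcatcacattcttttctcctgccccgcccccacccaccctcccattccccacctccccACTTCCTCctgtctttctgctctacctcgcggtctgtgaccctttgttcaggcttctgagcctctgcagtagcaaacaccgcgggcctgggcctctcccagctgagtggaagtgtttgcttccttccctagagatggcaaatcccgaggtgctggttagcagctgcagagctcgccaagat
Tgm1: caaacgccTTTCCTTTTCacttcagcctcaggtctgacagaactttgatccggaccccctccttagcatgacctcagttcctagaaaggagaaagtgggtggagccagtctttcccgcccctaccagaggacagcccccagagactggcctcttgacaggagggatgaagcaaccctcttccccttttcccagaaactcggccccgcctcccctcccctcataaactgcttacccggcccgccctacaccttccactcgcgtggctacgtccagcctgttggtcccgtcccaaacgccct
Gpnmb: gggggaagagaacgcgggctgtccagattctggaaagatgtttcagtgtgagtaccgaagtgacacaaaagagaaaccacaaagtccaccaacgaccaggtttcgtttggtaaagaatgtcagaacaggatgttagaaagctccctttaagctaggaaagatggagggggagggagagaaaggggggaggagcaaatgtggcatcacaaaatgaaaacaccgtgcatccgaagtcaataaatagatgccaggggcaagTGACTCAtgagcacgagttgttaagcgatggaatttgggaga
Cxcl10: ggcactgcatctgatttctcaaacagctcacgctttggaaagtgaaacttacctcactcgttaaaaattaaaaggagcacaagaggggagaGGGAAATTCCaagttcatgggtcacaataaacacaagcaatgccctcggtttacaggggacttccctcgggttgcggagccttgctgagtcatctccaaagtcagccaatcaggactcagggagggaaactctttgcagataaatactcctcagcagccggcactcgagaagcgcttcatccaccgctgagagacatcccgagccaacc

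The first, of the lysosomal calcium channel gene Mcoln3 (chr3:146121541-146121840, plus strand), holds PU.1. Mcoln3 measured 0.242, 0 and 0.223 CPM in the WT libraries and 6.69, 6.27 and 8.56 CPM in the PG9VN libraries. The groups did not overlap (log2 fold change of 5.47 ± 0.75, adjusted p = 0.00159). The second, of the transglutaminase gene Tgm1 (chr14:55713443-55713742, minus strand), holds the interferon response element, and Tgm1 rose from 0.304 ± 0.106 CPM to 22.5 ± 7.08 CPM (log2 fold change of 6.21 ± 0.37, adjusted p = 2.65e-05). The third, of Gpnmb (chr6:49036268-49036567, plus strand), a glycoprotein of lipid-laden phagocytes, holds AP-1. Gpnmb measured 4.16, 5.08 and 3.99 CPM in the WT libraries and 1183, 1739 and 1747 CPM in the PG9VN libraries, with all PG9VN libraries far above WT. The fourth, of the chemokine gene Cxcl10 (chr5:92348840-92349139, minus strand), holds the NF-kappaB motif, and Cxcl10 rose from 0.492 ± 0.476 CPM to 11.2 ± 2.32 CPM (log2 fold change of 4.53 ± 0.55, adjusted p = 0.000789). Mcoln3, Tgm1 and Cxcl10 were chosen after their values were seen.

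**Figure D4:**
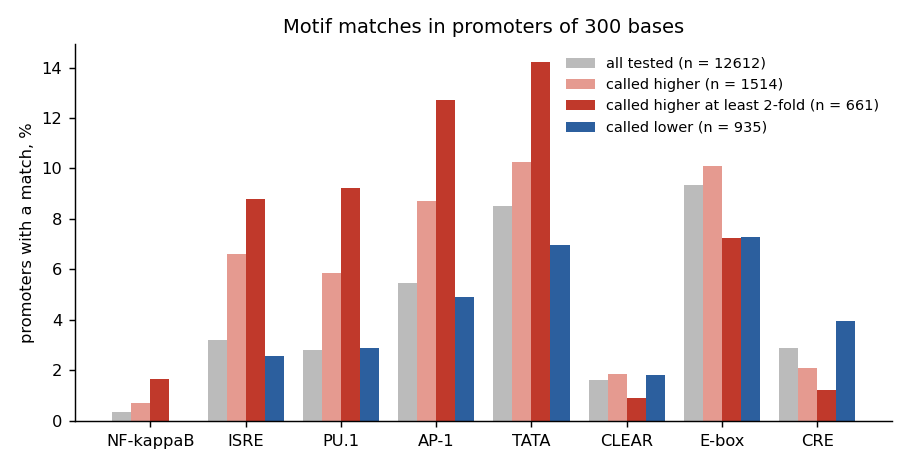
Share of promoters with at least 1 match, in percent, for 8 motifs and 4 gene sets (grey, all tested; pale red, higher; red, higher at least 2-fold; blue, lower). Against all promoters, those of genes that rose at least 2-fold hold PU.1, AP-1, the interferon element (ISRE), NF-kappaB and TATA in a larger share. CLEAR, the E-box and CRE are in a smaller share.

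The largest falls included genes that mark groups of midbrain and hindbrain neurons. Abhd12b, an alpha/beta-hydrolase family gene, measured 21.02, 16.6 and 14.003 CPM in the WT libraries and 1.65, 1.29 and 0.696 CPM in the PG9VN libraries. Every PG9VN library was under the lowest WT library by several times (log2 fold change of -3.82 ± 0.28, adjusted p = 5.60e-05). Gata3 (-3.10 ± 0.38), a transcription factor of midbrain and hindbrain inhibitory neurons, and Tfap2b (-2.98 ± 0.56), a developmental transcription factor, fell. Syt2, the fast calcium sensor of transmitter release, measured 147, 94.1 and 152 CPM in the WT libraries and 43.4, 22.1 and 26.02 CPM in the PG9VN libraries. The groups were apart, with PG9VN replicate 2 the lowest (log2 fold change of -2.10 ± 0.27, adjusted p = 0.00107). The serotonin transporter Slc6a4 measured 2.42, 0.677 and 19.4 CPM in the WT libraries and 0.0719, 0.0369 and 0.104 CPM in the PG9VN libraries. Its WT libraries differed widely among themselves, and its call was lost without PG9VN replicate 2 (adjusted p = 0.149), and also without WT replicate 1 or 3, PG9V replicate 1 or PG9VN replicate 1 or 3. Its log2 fold change was -6.63 ± 1.96, and -6.35 without PG9VN replicate 2. Shox2, a thalamic and midbrain transcription factor, went from 35.6 ± 6.73 CPM to 6.78 ± 5.15 CPM (log2 fold change of -2.39 ± 0.56, adjusted p = 0.0202). It lost its call without PG9VN replicate 2 (adjusted p = 0.0543), where the log2 fold change was -2.48, and without WT replicate 1 or 3. Pax7, a transcription factor of the dorsal midbrain, went from 3.28 ± 1.68 CPM to 0.131 ± 0.0514 CPM (log2 fold change of -4.60 ± 0.55, adjusted p = 0.000607).

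Thalamic genes fell as a group: 12 of 14 were lower and 0 higher, with a median of -1.39, and 10 to 12 without any single library (11 without PG9VN replicate 2). Adarb1, an RNA-editing deaminase, measured 455, 443 and 388 CPM in the WT libraries and 198, 167 and 165 CPM in the PG9VN libraries. The groups did not overlap, and the PG9VN libraries were close to each other (log2 fold change of -1.28 ± 0.11, adjusted p = 0.000127). Prkcd, the protein kinase C delta of thalamic relay neurons, fell from 185 ± 26.6 CPM to 66.6 ± 16.9 CPM (-1.47 ± 0.18) and the nuclear receptor Rora from 129 ± 14.7 CPM to 48.5 ± 8.76 CPM (-1.41 ± 0.17). Averaged over the list, the deviation from the WT mean was -0.92, -1.76 and -1.47 log2 units in the PG9VN libraries and -0.11 to 0.13 in WT. Midbrain neuron genes averaged -1.17, -3.34 and -2.87 in PG9VN and 0.11, -0.56 and 0.45 in WT, with 5 of 19 lower. That count was 12 without PG9VN replicate 1, and 2 or 3 without any 1 other library but WT replicate 2. Hypothalamic neuropeptide genes averaged 0.72, -3.07 and 0.94, and cortex and hippocampus markers -0.61, 1.02 and -0.64. For these last lists PG9VN replicate 2 differed in sign from the other PG9VN libraries. How the pieces were cut and the genotype cannot be told apart in any of these lists, the thalamic and midbrain ones included.

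Lists of ion channel, motor, adhesion and transmitter receptor genes held more lower than higher calls, in a minority of their members. For these lists too, how the pieces were cut and the genotype cannot be told apart. Scn1a, the sodium channel of fast-spiking neurons, measured 203, 175 and 216 CPM in the WT libraries and 105, 78.5 and 81.2 CPM in the PG9VN libraries. The groups did not overlap (log2 fold change of -1.16 ± 0.14, adjusted p = 0.000554). Of 16 sodium channel and sodium pump genes 5 were lower and 0 higher (2 without WT replicate 3, 3 without WT replicate 1 or 2, PG9V replicate 1 or PG9VN replicate 3, 8 without PG9VN replicate 2). Of 30 calcium channel and pump genes 8 were lower and 1 higher (0 higher without any 1 WT library, PG9V replicate 3 or PG9VN replicate 1 or 3), with the auxiliary subunits Cacng2 (-0.69 ± 0.10) and Cacnb4 (-0.50 ± 0.10) and the pump Atp2a2 (from 839 ± 29.4 CPM to 539 ± 77.3 CPM). Of 28 kinesin and dynein motor genes 9 were lower and 0 higher (15 lower without PG9VN replicate 2), among them Kif3a (-0.54 ± 0.10) and Kif21a (-0.58 ± 0.11). Cplx1, complexin 1, which clamps vesicle fusion, measured 673, 683 and 641 CPM in the WT libraries and 348, 469 and 289.6 CPM in the PG9VN libraries. PG9VN lay below WT in each library (log2 fold change of -0.85 ± 0.16, adjusted p = 0.00769), and the microtubule protein Map1b fell from 1260.2 ± 68.7 CPM to 786 ± 96.1 CPM (log2 fold change of -0.68 ± 0.12, adjusted p = 0.00513). Of 41 cadherins and protocadherins, neuronal adhesion proteins, 10 were lower and 1 higher (6 lower without WT replicate 1 or 3), with Pcdh7 at -0.79 ± 0.10 and Cdh6 at -1.14 ± 0.18. Among acetylcholine and monoamine receptors 6 of 38 were lower and 1 higher (3 lower without WT replicate 1 or 3, 10 without PG9VN replicate 2, and 0 higher without WT replicate 1 or 3 or PG9VN replicate 3), with the nicotinic subunit Chrna4 at -1.19 ± 0.15 and the muscarinic Chrm2 at -1.44 ± 0.26.

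Of 44 splicing factors 2 were higher, Ptbp1 (0.61 ± 0.12) and Ptbp3 (0.40 ± 0.07), both repressors of neuronal exons, and 7 lower, among them the neuronal RNA-binding proteins Elavl2 (-0.86 ± 0.12) and Elavl4 (-0.92 ± 0.14). The lower count was 3 or 4 without WT replicates 1, 2 or 3, PG9V replicate 1, or PG9VN replicates 1 or 3. Of 48 chromatin regulators 7 were lower and 1 higher (1 lower without WT replicate 1, 2 without WT replicate 2 or 3, 3 without PG9VN replicate 3 and 4 without PG9V replicate 1; 0 higher without any 1 WT library or PG9V replicate 2, and 3 without PG9VN replicate 2). Aminoacyl-tRNA synthetases gave 1 higher and 1 lower of 35 (6 lower without PG9VN replicate 2 and 0 in the other 8 omissions; 0 higher without WT replicate 1 or 2 or PG9VN replicate 3).

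Further lists held single large changes. Among 39 RGS and heterotrimeric G protein genes 9 were higher and 5 lower (5 higher without WT replicate 3; 2 or 3 lower without any 1 WT library or PG9VN replicate 3). Rgs1, a regulator of G protein signalling in leukocytes, rose from 0.181 ± 0.0228 CPM to 9.22 ± 0.826 CPM (log2 fold change of 5.64 ± 0.37, adjusted p = 3.80e-05), and Rgs16 fell from 38.8 ± 6.89 CPM to 17.3 ± 2.86 CPM (log2 fold change of -1.16 ± 0.15, adjusted p = 0.00107). Of 26 immediate early genes 2 were higher and 0 lower (5 higher without WT replicate 2): the stress-induced factor Atf3 (from 1.46 ± 1.11 CPM to 10.7 ± 2.77 CPM) and the survival gene Ier3 (0.82 ± 0.12). Of the dendritic cell list Cst3, the secreted cystatin C that microglia also make, rose from 704 ± 36.001 CPM to 1407 ± 350.4 CPM, and the receptor Flt3 fell from 20.4 ± 1.83 CPM to 7.98 ± 1.70 CPM. The clock gene Clock fell (-0.40 ± 0.09) and its repressor Bhlhe41 rose (0.50 ± 0.10). Striatum and cerebellum markers gave 0 calls of 12 each (1 lower cerebellar gene without PG9VN replicate 2).

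The direction of change followed transcript length. Of the 1730 shortest genes (median length 742 bases) 16.7% were higher and 1.16% lower, and the median change was 0.23 on the log2 scale. Of the 1730 longest (median 7797 bases) 3.70% were higher and 22.5% lower, with a median of -0.24. Without PG9VN replicate 2 these medians were 0.13 and -0.18. By library the median of the shortest genes deviated from the WT mean by 0.14, 0.45 and 0.17 in PG9VN, highest in replicate 2, and by -0.01 to 0.03 in WT. When each library's trend with length was removed, 1819 genes were higher and 1077 lower, 1636 and 778 of them called in the same direction before. S100, annexin and galectin genes then gave 16 higher of 22 and thalamic genes 11 lower of 14. Calcium channel genes gave 4 lower of 30, in place of 8, and their median went from -0.28 to 0.06. Lower calls also went from 10 to 6 for cadherins and protocadherins (3 higher, in place of 1), from 7 to 3 for splicing factors, from 7 to 2 for chromatin regulators (3 higher, in place of 1), from 5 to 2 for PI3K, Akt and mTOR genes and from 3 to 1 for collagens and laminins (4 higher, in place of 2). They went up from 1 to 7 for the tricarboxylic acid cycle (2 higher, in place of 3), from 2 to 5 for Rab and endosomal genes and from 1 to 3 for aminoacyl-tRNA synthetases. The Wnt pathway then had 2 higher, in place of 0. Kinesin and dynein motors had 6 lower, in place of 9, and their median went from -0.20 to -0.09. For the B cell, tetraspanin, p53, TGF-beta, glycolysis and metallothionein lists the lower count changed by 1. It also changed by 1 for the midbrain, sodium channel, acetylcholine and monoamine receptor, matrix protease, actin and Nrf2 lists. For the longest neuronal genes the fall and the length trend cannot be told apart by these counts, and RNA quality was not measured in the files.

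**Figure D5:**
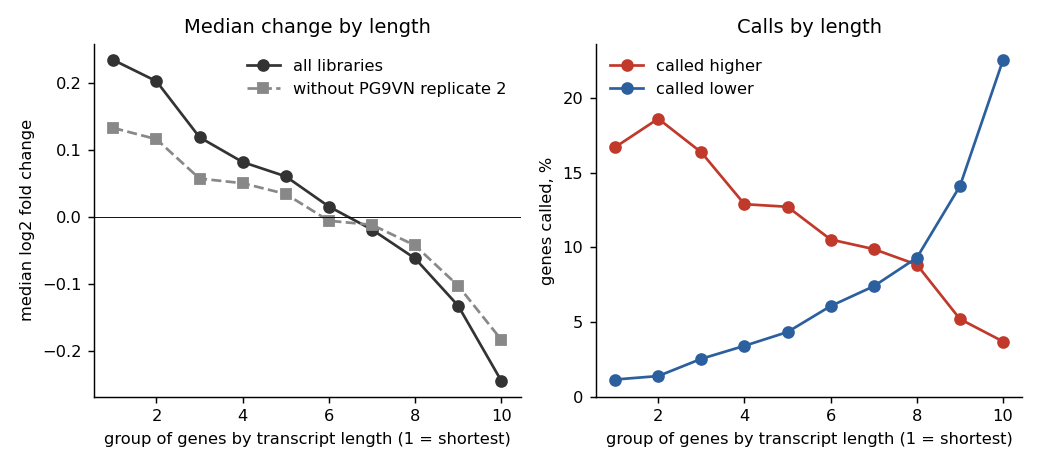
Median log2 fold change (left) and percentage of genes called (right) in 10 equal groups of genes by transcript length, from the shortest (1) to the longest (10). The median falls from 0.23 to -0.24 with all libraries and from 0.13 to -0.18 without PG9VN replicate 2, and the share called lower rises from 1.16% to 22.5%.

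Genes were also grouped into families by the letters of the symbol before its first digit, and the families at both ends by median are described. The interferon-inducible Ifi genes had 12 of 15 higher and 0 lower with a median of 1.92. Among them Ifi207 went from 0.338 ± 0.0590 CPM to 10.1 ± 2.04 CPM (4.88 ± 0.32). Of 17 Ccl chemokines 8 were higher (median 1.38) and of 79 Cd antigens 38 were higher and 2 lower (median 0.88). Ribosomal protein genes and their pseudogenes were higher in 34 of 67 for Rpl (median 0.58) and 31 of 66 for Rps (median 0.58), and 19 and 22 once the length trend was removed. At the low end stood the Cdh cadherins (0 higher and 7 lower of 23, median -0.42). Olfactory receptors had 3 higher and 5 lower of 342. Of these Olfr1309 measured 4.78, 4.03 and 1.87 CPM in the WT libraries and 246, 97.98 and 39.8 CPM in the PG9VN libraries. PG9VN exceeded WT in every library, with replicate 1 the highest (log2 fold change of 5.18 ± 0.75, adjusted p = 0.00223).

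Some of the most extreme values belong to near-identical copies, where reads can move between features. Rps2-ps13, a pseudogene of the ribosomal protein gene Rps2, measured 0, 0 and 0.223 CPM in the WT libraries and 285, 226 and 164 CPM in the PG9VN libraries. Rps2 itself measured 203, 201 and 207 CPM in the WT libraries and 4.39, 219 and 149.7 CPM in the PG9VN libraries, replicate 1 of PG9VN being the low one. Summed over 10 Rps2 copies, the levels were 205 ± 3.23 CPM in WT and 396 ± 82.6 CPM in PG9VN. Rps3a2 and Rps3a3 rose by 8.84 ± 0.26 and 8.46 ± 0.34, while the summed Rps3a copies measured 224 ± 6.47 and 282 ± 69.4 CPM. The largest fall of any called gene was that of Gm28438 (399.7, 395 and 413 CPM in the WT libraries and 3.49, 1.07 and 0 CPM in the PG9VN libraries; log2 fold change of -8.05 ± 0.89, adjusted p = 0.00176), a predicted pseudogene outside the naming rule. Its 345 annotated bases match the mitochondrial gene mt-Nd3 at 344 positions. mt-Nd3 went the other way, from 242 ± 23.7 CPM to 962 ± 209 CPM, and their sum was 645 ± 16.3 CPM in WT and 964 ± 209 in PG9VN. Which copy a read came from is uncertain for all of these.

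At the level of transcripts 1181 of 53622 were higher (2.20%) and 568 lower (1.06%), and 9 genes had transcripts called in both directions. Without PG9VN replicate 2 there were 17 such genes, 6 of them among the 9. Nnt, the mitochondrial transhydrogenase, fell as a gene from 37.6 ± 2.57 CPM to 20.5 ± 2.05 CPM (log2 fold change of -0.87 ± 0.09, adjusted p = 0.000371). Its transcript ENSMUST00000099149.9 went from 35.6 ± 3.01 to 13.1 ± 0.791 CPM, and ENSMUST00000069902.12 from 0 in every WT library to 6.39 ± 1.83 CPM. A deletion in Nnt is known to distinguish substrains of C57BL/6 mice. The labels give no strain, so strain and genotype cannot be told apart at this gene or any other, Gabra2 included. Gabra2, a GABA-A receptor subunit, fell as a gene (log2 fold change of -1.20 ± 0.12, adjusted p = 0.000202). Its transcript ENSMUST00000198625.4 fell from 29.0 ± 1.64 to 10.2 ± 1.74 CPM, while ENSMUST00000197124.4 rose from 0.940 ± 0.289 to 6.81 ± 1.85 CPM.

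The genes beside Grn were read for changes near the engineered allele. Of the 40 tested genes nearest to Grn 5 were higher (12.5%) and 1 lower (2.50%), against 11.5% and 7.22% of all genes. The astrocyte filament gene Gfap, 14 places away, went from 267 ± 28.9 CPM to 3178 ± 885 CPM (log2 fold change of 3.57 ± 0.26, adjusted p = 5.10e-05). Gfap was also among the named genes with the largest gains in CPM. The part of its position in this rise was not tested.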

How the data were processed

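Estimated counts per transcript were deposited for 9 libraries, 105129 transcripts. The submitters' processing notes list kallisto 0.43.1, HISAT2 2.0.5, Trimmomatic 0.33 and FastQC, and the genome build mm39. Which tool made the counts is stated nowhere in the sources used here. Estimated counts share reads among similar transcripts. They were summed per gene and rounded to whole numbers. Symbols altered to date numbers (24, on 177 transcripts) were restored for 173 transcripts and 4 were left out. Names, lengths and gene order came from a GRCm38 annotation that matched 98.6% of transcript identifiers.

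The fit used edgeR 4.0.16 in R 4.3.3 (TMM, filterByExpr, robust quasi-likelihood F test, 1 coefficient per genotype, all 9 libraries). It was also run on simulated data. These had no outlying library and no length trend, so that run cannot vouch for the calls made here. Alternatives used DESeq2 1.42.0, limma-voom (limma 3.58.1), other scalings, filters and sets of libraries. Totals were 27150311 to 35349014 counts; 3 counts equal 0.0849 to 0.111 CPM. Sex, strain, litter and batch are absent from the labels.

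Members, 54 gene lists, the naming rule and tests were chosen with earlier results of these data known. From called genes whose groups did not overlap and whose mean reached 2 CPM, predicted genes left out, the rule took the 12 largest rises and falls, the 10 largest gains and losses in CPM and the 10 smallest p-values. It added Grn, up to 4 genes per list, 2 per symbol family at either end, genes on or off, called neighbours, and genes with opposed transcripts. Some genes the rule took are not reported here. Removing the length trend, leaving out WT replicate 1 together with PG9VN replicate 2, and reading copies of mitochondrial genes were added after the data had been seen.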

Additional observations from a re-analysis of the deposited data

How the results depend on the processing

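Leaving out single libraries gave 1276 to 2365 genes higher and 533 to 2014 lower, against 2002 and 1256. With only the WT and PG9VN libraries 1335 were higher and 608 lower, a fit with fewer samples for the spread. The other alternatives stayed within 1.5 times of both counts, with 1786 to 2297 higher and 964 to 1823 lower. These were RLE and upper-quartile scaling, no filter, a mean of at least 1 CPM, DESeq2, limma-voom, the length trend removed (not planned) and WT replicate 1 and PG9VN replicate 2 both left out (not planned). Of the called genes 14 changed sign with the length trend removed, and 0 in any other setting. Of 261 named genes called, 261 were called by DESeq2, 257 by limma-voom, 250 without PG9VN replicate 2, 206 without WT replicate 1 and 228 with the length trend removed. No paired analysis was possible because replicate numbers were given in accession order and the labels pair no mice. Genes with few counts and near-identical copies are limited by depth and by read sharing.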
